A study of Mus musculus with 12 samples.

Results

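Ribosome biogenesis factors are the proteins that make ribosomes without being part of them. RNA polymerase I copies the ribosomal RNA genes in the nucleolus, small nucleolar ribonucleoproteins (snoRNPs) modify the copy, and assembly factors fold, cut and export the small and large subunits. In growing tissue their genes are typically expressed together, and in liver they are known to rise when hepatocytes are driven to grow. The set described here was given as 35 gene symbols of RNA polymerase I and the nucleolus, and a member was measured where the array held a probe set named for that symbol alone. This gave 32 of the 35 symbols among 12393 genes on the array. Dkc1, Mrto4 and Nob1 had no such probe set and were not analysed here. Where a gene had several probe sets, the one with the highest mean over the 12 arrays stands for it.

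The values come from whole livers of 12 C57Bl/6J mice aged 6 to 8 weeks, hybridised 1 animal per Affymetrix array, with 3 animals in each of 4 groups. Wild-type mice and Aag knock-out mice were either untreated controls or had been given 75 mg/kg of methyl methanesulfonate (MMS), which methylates DNA, once into the peritoneum 6 hours before the liver was taken. Aag, also named Mpg, is the glycosylase that cuts methylated bases out of DNA to start base excision repair. The sources used here do not give how the knock-out allele was made, whether controls were injected, or the hour of collection. At 1 of its 2 probe sets Mpg ranged from 6.21 to 6.94 in wild-type and from 4.95 to 5.75 in knock-out livers on the log2 scale, and at the other the genotypes overlapped. Where these probe sets lie relative to the deleted part is not known here. The hepatocyte marker list, 12 genes such as Alb and Apob, had a summed log2 level of 17.5 to 17.7 in treated wild-type livers. In every liver of the other groups it rounded to 17.7. Array medians ran from 7.42 to 7.75. All values below are deposited log2 expression values, listed in the order of animals 1, 2 and 3, and a change is a difference of group means with the standard error of the fit. A change was called where the limma adjusted p, taken over all 22626 probe sets tested, was under 0.05. The averaged MMS response is the mean of the wild-type and the knock-out difference, and it draws on all 12 arrays.

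A total of 27 of the 32 members had a promoter window in the RefSeq table (GRCm38.p6), which covers 300 bases around each annotated transcription start, most of them upstream. The 6 windows below belong to the called members with the smallest p, and they are shown because these genes carry the results that follow. Capitals mark the E-box CACGTG, a palindrome that reads alike on both strands and is the site bound by MYC with MAX and by the clock activators BMAL1 and CLOCK. Each runs 5′ to 3′ along the strand of its gene. The windows are chr14:31019082-31019381, minus strand (Gnl3), chr3:129831347-129831646, minus strand (Gar1), chr17:71615965-71616264, plus strand (Wdr43), chr1:59684756-59685055, plus strand (Nop58), chr17:46247996-46248295, minus strand (Polr1c), and chr11:74897830-74898129, plus strand (Tsr1).
Gnl3: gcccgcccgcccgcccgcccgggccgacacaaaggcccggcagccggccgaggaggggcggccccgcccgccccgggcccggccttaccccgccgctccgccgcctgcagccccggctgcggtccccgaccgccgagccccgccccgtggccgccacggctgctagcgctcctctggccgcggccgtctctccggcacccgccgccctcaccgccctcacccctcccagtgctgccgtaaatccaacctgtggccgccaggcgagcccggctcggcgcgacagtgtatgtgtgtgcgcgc
Gar1: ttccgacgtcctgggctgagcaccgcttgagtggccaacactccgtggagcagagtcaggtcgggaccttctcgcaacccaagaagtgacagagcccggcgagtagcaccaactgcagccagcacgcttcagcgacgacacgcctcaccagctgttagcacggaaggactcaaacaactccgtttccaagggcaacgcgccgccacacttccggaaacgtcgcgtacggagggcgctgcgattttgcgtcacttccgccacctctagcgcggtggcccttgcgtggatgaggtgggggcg
Wdr43: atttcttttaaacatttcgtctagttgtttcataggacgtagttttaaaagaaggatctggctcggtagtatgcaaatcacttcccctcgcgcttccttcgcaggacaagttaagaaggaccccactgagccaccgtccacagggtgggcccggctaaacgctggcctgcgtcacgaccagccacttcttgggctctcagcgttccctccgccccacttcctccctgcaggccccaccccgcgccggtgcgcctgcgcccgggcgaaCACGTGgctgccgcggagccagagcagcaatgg
Nop58: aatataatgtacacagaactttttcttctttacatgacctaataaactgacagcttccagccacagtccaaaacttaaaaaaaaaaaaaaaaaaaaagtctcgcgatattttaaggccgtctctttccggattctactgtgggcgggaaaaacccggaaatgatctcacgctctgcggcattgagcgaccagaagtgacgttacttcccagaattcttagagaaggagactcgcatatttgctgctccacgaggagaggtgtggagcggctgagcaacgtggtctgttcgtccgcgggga
Polr1c: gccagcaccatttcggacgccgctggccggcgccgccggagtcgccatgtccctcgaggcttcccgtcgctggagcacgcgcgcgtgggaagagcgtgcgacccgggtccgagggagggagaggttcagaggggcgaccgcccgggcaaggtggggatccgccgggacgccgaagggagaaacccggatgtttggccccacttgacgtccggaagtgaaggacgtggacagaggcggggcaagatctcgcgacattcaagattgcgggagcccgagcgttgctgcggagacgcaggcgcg
Tsr1: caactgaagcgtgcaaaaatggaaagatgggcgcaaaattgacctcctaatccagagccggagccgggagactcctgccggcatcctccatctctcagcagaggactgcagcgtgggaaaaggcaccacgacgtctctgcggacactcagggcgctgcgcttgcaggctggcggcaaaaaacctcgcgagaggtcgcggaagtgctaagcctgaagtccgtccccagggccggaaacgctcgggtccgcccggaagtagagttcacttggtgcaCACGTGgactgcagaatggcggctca
In the Wdr43 window the E-box is centred 20 bases after the start, and in the Tsr1 window 27 bases after it. The other 4 windows shown hold none. An E-box was found in 5 of the 27 members with a window (18.5%), the others being Pes1 (centred 5 bases after the start), Nop2 (at -57, upstream) and Imp4 (at -118). It was found in 1069 of 9887 genes on the array with a window (10.8%), in 21 of 92 further ribosome biogenesis genes (22.8%), and in 7.15% of all 32851 windows. Of the 13 members called in the averaged MMS response 3 held the box, and of the 14 others with a window 2 held it. A match is a description of the sequence, not of a bound site.

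Higher values after MMS were the common direction. In wild-type liver 27 of the 32 members had a positive difference, with a median of 0.30 against -0.06 over all genes. In Aag knock-out liver 30 were positive, with a median of 0.55 against -0.06. A positive difference in both genotypes was seen in 27 members (84.4%), against 22.3% of all genes. In the averaged response 13 members rose (40.6%), 19 were not called and none fell, where 5.04% of all genes were called higher and 7.49% lower. Within one genotype few members passed: Gnl3 and Wdr43 rose in wild type, where 2.2% of genes were called higher and 5.33% lower. Gar1, Pes1 and Polr1c rose in the knock-out, where 0.888% were called higher and 0.815% lower. Limma called no member lower in either genotype, and at an unadjusted p under 0.05 10 were higher and 0 lower in wild type and 23 higher and 0 lower in the knock-out. The shares of all genes at that p were 8.89% higher and 15.7% lower in wild type and 13.3% higher and 12.7% lower in the knock-out.

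**Figure D1:**
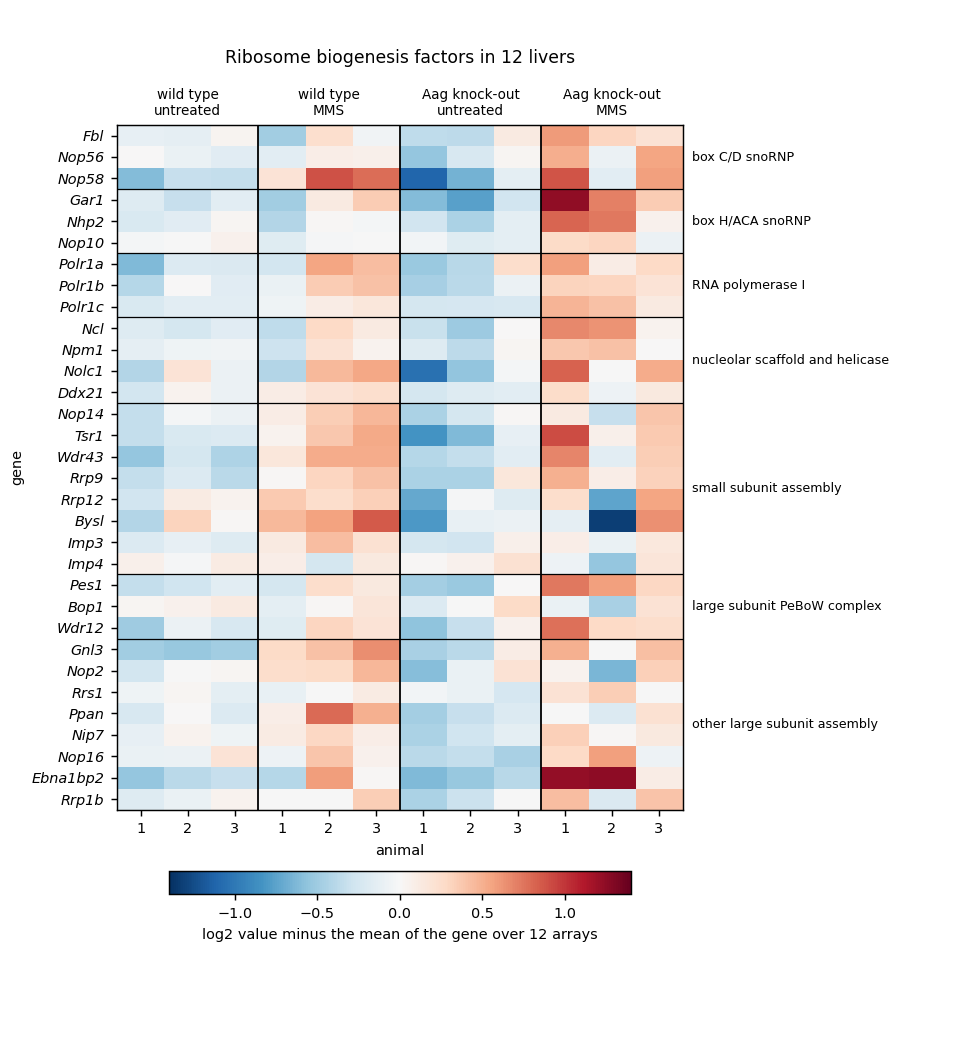
Log2 values of the 32 members in 12 livers, each minus the mean of its gene over the 12 arrays, with genes in rows by role and 1 column per animal in 4 groups of 3. MMS-treated arrays are mostly above the mean (red) and untreated arrays mostly below it (blue), with knock-out MMS animal 1 holding the highest value of 15 members and knock-out untreated animal 1 the lowest of 13.

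The arrays themselves showed the shift unevenly, as the map of centred values shows. The highest of the 12 values belonged to an MMS-treated liver in 30 members, and the lowest to an untreated liver in 25. All 3 treated values lay above all 3 untreated ones for 14 members in wild type (all genes, 11.4%) and for 17 in the knock-out (all genes, 13.9%), and in both genotypes for 6 (all genes, 2.96%). In 3 members, Polr1c, Tsr1 and Wdr43, all 6 treated livers exceeded all 6 untreated ones (all genes, 2.05%). The mean of the 32 members, each centred on its gene, was -0.26, -0.10 and -0.11 in untreated and -0.06, 0.29 and 0.29 in treated wild type. It was -0.45, -0.32 and -0.05 in untreated and 0.46, 0.07 and 0.26 in treated knock-out livers. Treated animal 1 of the wild type and treated animal 2 of the knock-out were thus the lowest treated livers, and untreated knock-out animal 3 was the highest untreated one. In treated knock-out animal 2 the members spread widely, since it held the highest value of 5 members and the lowest of 5 others (Bysl, Rrp12, Nop2, Imp4 and Bop1). Pairs of members correlated at a median r of 0.66 over the 12 arrays, with 435 of 496 pairs positive, and at 0.57 after the group means were removed. These pairs share the same arrays and their scaling, so this is a description only.

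RNA polymerase I was represented by its 2 largest subunits, Polr1a and Polr1b, and by Polr1c, which RNA polymerase III shares. Polr1c had log2 values of 10.05, 10.12 and 10.12 in untreated and 10.21, 10.37 and 10.42 in treated wild-type livers, and 10.03, 10.04 and 10.05 in untreated and 10.75, 10.68 and 10.39 in treated knock-out livers. Every treated liver stood above every untreated one, and the untreated livers lay close together. It rose by 0.57 ± 0.12 in the knock-out (1.48-fold, limma adjusted p = 0.048) and by 0.40 ± 0.08 on average (adjusted p = 0.0143). Its difference in wild type was 0.24 ± 0.12 (adjusted p = 0.269). Polr1b had 6.95, 7.35 and 7.19 in untreated and 7.26, 7.70 and 7.76 in treated wild-type livers, and 6.88, 6.97 and 7.26 in untreated and 7.66, 7.65 and 7.54 in treated knock-out livers. The knock-out groups did not overlap, while treated wild-type animal 1 fell within the untreated range. Polr1b rose by 0.49 ± 0.12 on average (adjusted p = 0.0237). Polr1a differed by 0.56 ± 0.18 on average and was not called (adjusted p = 0.0705).

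Box C/D snoRNPs, which guide methylation of ribosomal RNA, have Fbl as the methyltransferase and Nop56 and Nop58 as its core partners. Nop58 had 8.61, 8.89 and 8.89 in untreated and 9.41, 10.10 and 9.999 in treated wild-type livers, and 8.11, 8.56 and 9.08 in untreated and 10.09, 9.07 and 9.79 in treated knock-out livers. All treated wild-type livers exceeded the untreated ones, and in the knock-out only treated animal 2 reached down to untreated animal 3. Nop58 rose by 1.06 ± 0.21 on average (2.08-fold, limma adjusted p = 0.0122), the largest change among the 32 members there, and it was not called within wild type (1.04 ± 0.30, adjusted p = 0.0653) or knock-out (1.07 ± 0.30, adjusted p = 0.0788). Nop56 and Fbl were not called, with averaged differences of 0.33 ± 0.14 and 0.27 ± 0.14. The other Nop56 probe set was called higher (0.68 ± 0.17, adjusted p = 0.0269).

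Box H/ACA snoRNPs turn uridine into pseudouridine and also stabilise telomerase RNA, and Gar1, Nhp2 and Nop10 are 3 of their core proteins. Gar1 had 9.22, 9.09 and 9.26 in untreated and 8.91, 9.53 and 9.77 in treated wild-type livers, and 8.80, 8.65 and 9.14 in untreated and 10.64, 10.11 and 9.76 in treated knock-out livers. In the knock-out all treated livers were above all untreated ones, with animal 1 highest of the 12, while in wild type treated animal 1 was below every untreated wild-type liver. Gar1 rose by 1.31 ± 0.25 in the knock-out (2.48-fold, limma adjusted p = 0.0408) and by 0.76 ± 0.18 on average (adjusted p = 0.023), with a difference of 0.21 ± 0.25 in wild type (adjusted p = 0.654). Nhp2 had 8.27, 8.32 and 8.502 in untreated and 8.07, 8.499 and 8.45 in treated wild-type livers, and 8.21, 8.03 and 8.34 in untreated and 9.30, 9.21 and 8.53 in treated knock-out livers. Treated knock-out animals 1 and 2 stood above the other 10 livers, and the wild-type groups overlapped. Nhp2 was not called, at 0.82 ± 0.20 in the knock-out (adjusted p = 0.0617) and -0.02 ± 0.20 in wild type. Nop10 showed the smallest averaged difference of the 3 (0.10 ± 0.09).

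Nucleolar scaffold and helicase genes all had positive differences in both genotypes at the probe sets used, and none of the 4 was called. Ncl and Npm1 encode the abundant nucleolar proteins nucleolin and nucleophosmin, and Nolc1 a chaperone of snoRNPs. Their averaged differences were 0.47 ± 0.15, 0.25 ± 0.12 and 0.64 ± 0.23. Ddx21, an RNA helicase that acts on ribosomal RNA transcription and processing, had 11.13, 11.45 and 11.31 in untreated and 11.50, 11.58 and 11.62 in treated wild-type livers, and 11.15, 11.21 and 11.25 in untreated and 11.65, 11.32 and 11.53 in treated knock-out livers. Treated and untreated livers did not overlap within either genotype, although treated knock-out animal 2 lay below untreated wild-type animal 2. The averaged difference of Ddx21 was 0.28 ± 0.09 (limma adjusted p = 0.0615). Of the 3 other Ncl probe sets, 1 had the opposite sign (-0.04 ± 0.14). A further Nolc1 probe set had the opposite sign in wild type (-0.27 ± 0.16, against 0.29 ± 0.33 at the one used).

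**Figure D2:**
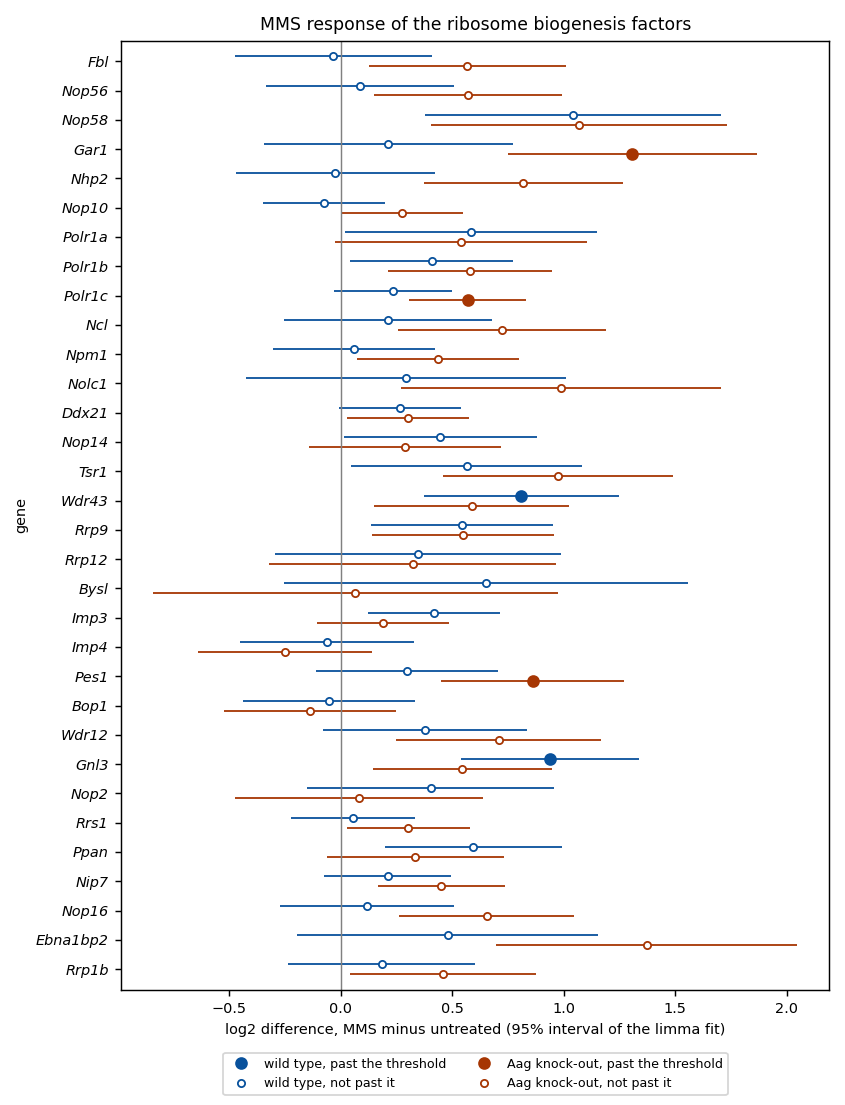
MMS-treated minus untreated log2 difference of each member in wild type and in Aag knock-out, with the 95% interval of the limma fit to 12 arrays (3 per group). Filled points passed the adjusted threshold of 0.05 (Gnl3 and Wdr43 in wild type, Gar1, Pes1 and Polr1c in the knock-out), and 27 members have both points to the right of 0.

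Among 8 factors of small subunit assembly 3 rose in the averaged response and none fell. Tsr1, a GTPase-like factor of late 40S maturation, had 9.30, 9.42 and 9.45 in untreated and 9.69, 10.01 and 10.17 in treated wild-type livers, and 8.79, 9.02 and 9.52 in untreated and 10.55, 9.71 and 9.998 in treated knock-out livers. All 6 treated livers exceeded all 6 untreated ones, with treated knock-out animal 1 highest and untreated knock-out animal 1 lowest. Tsr1 rose by 0.77 ± 0.17 (1.71-fold, limma adjusted p = 0.0158). Wdr43, a UTP-A subunit of the early processome, had 9.66, 9.96 and 9.78 in untreated and 10.37, 10.73 and 10.73 in treated wild-type livers, and 9.81, 9.88 and 10.06 in untreated and 10.90, 10.06 and 10.55 in treated knock-out livers. The treated and untreated sets just separated, since untreated knock-out animal 3 and treated knock-out animal 2 both round to 10.06. Wdr43 rose by 0.81 ± 0.20 in wild type (1.75-fold, adjusted p = 0.0384) and by 0.70 ± 0.14 on average (adjusted p = 0.012), and its other probe set was also called on average (0.79 ± 0.18, adjusted p = 0.0185). Rrp9, a protein of the U3 snoRNP, had 7.81, 7.95 and 7.77 in untreated and 8.16, 8.44 and 8.56 in treated wild-type livers, and 7.70, 7.70 and 8.30 in untreated and 8.64, 8.24 and 8.47 in treated knock-out livers. The wild-type groups did not overlap, and untreated knock-out animal 3 reached the treated range. Rrp9 rose by 0.55 ± 0.13 on average (adjusted p = 0.0245). The 5 others were not called, with averaged differences of 0.31 (Imp3) to 0.37 (Nop14) for Imp3, Rrp12, Bysl and Nop14. Imp4, a partner of the U3 snoRNP, had the lowest averaged difference of the 32 members (-0.15 ± 0.13), while its other probe set stood at 0.31 ± 0.14. The second probe set of Bysl was called higher (0.62 ± 0.16, adjusted p = 0.0362), the one used for the set being 0.36 ± 0.29.

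The PeBoW complex of Pes1, Bop1 and Wdr12 is needed for large subunit maturation. Pes1 had 8.41, 8.45 and 8.59 in untreated and 8.48, 8.99 and 8.87 in treated wild-type livers, and 8.26, 8.22 and 8.74 in untreated and 9.48, 9.30 and 9.02 in treated knock-out livers. The knock-out groups did not overlap and all 3 treated knock-out livers stood above the other 9, whereas treated wild-type animal 1 lay within the untreated range. Pes1 rose by 0.86 ± 0.19 in the knock-out (1.82-fold, limma adjusted p = 0.0495) and by 0.58 ± 0.13 on average (adjusted p = 0.0192). A second Pes1 probe set ran the other way in the knock-out (-0.07 ± 0.31, not called). Wdr12 had 9.44, 9.86 and 9.72 in untreated and 9.78, 10.25 and 10.13 in treated wild-type livers, and 9.38, 9.62 and 10.004 in untreated and 10.71, 10.23 and 10.19 in treated knock-out livers. The knock-out groups were separate and the wild-type groups overlapped. Wdr12 rose by 0.54 ± 0.15 on average (adjusted p = 0.0386), while a second probe set stood at -0.09 ± 0.14 without a call. Bop1 did not follow its partners in sign, at -0.05 ± 0.18 in wild type and -0.14 ± 0.18 in the knock-out, neither called.

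The 8 other factors of large subunit assembly were all positive in both genotypes, and 4 rose in the averaged response. Gnl3, the nucleolar GTPase also called nucleostemin, had 10.86, 10.81 and 10.85 in untreated and 11.61, 11.75 and 11.99 in treated wild-type livers, and 10.88, 10.96 and 11.44 in untreated and 11.84, 11.33 and 11.76 in treated knock-out livers. In wild type the untreated livers lay close together and far below the treated ones, and in the knock-out untreated animal 3 reached the treated range. Gnl3 rose by 0.94 ± 0.18 in wild type (1.92-fold, limma adjusted p = 0.0166) and by 0.74 ± 0.13 on average (adjusted p = 0.00646), and it was 0.55 ± 0.18 in the knock-out without a call. Ebna1bp2, a factor of 60S assembly, had 8.75, 8.90 and 8.95 in untreated and 8.88, 9.86 and 9.30 in treated wild-type livers, and 8.67, 8.75 and 8.90 in untreated and 10.52, 10.54 and 9.38 in treated knock-out livers. Treated knock-out animals 1 and 2 were the highest, and treated wild-type animal 1 lay among the untreated livers. Ebna1bp2 rose by 0.93 ± 0.22 on average (1.9-fold, adjusted p = 0.022). Ppan, a nucleolar factor of 60S assembly, had 9.04, 9.28 and 9.08 in untreated and 9.36, 10.06 and 9.76 in treated wild-type livers, and 8.79, 8.95 and 9.08 in untreated and 9.26, 9.08 and 9.49 in treated knock-out livers. The wild-type groups were separate. The knock-out groups only just separated, with untreated animal 3 at 9.0794 and treated animal 2 at 9.0797. Ppan rose by 0.47 ± 0.13 on average (adjusted p = 0.0404). Nip7, an RNA-binding factor of pre-ribosomes, had 10.11, 10.27 and 10.16 in untreated and 10.34, 10.52 and 10.32 in treated wild-type livers, and 9.78, 9.94 and 10.09 in untreated and 10.56, 10.24 and 10.37 in treated knock-out livers. Neither genotype's groups overlapped. Nip7 rose by 0.33 ± 0.09 on average (adjusted p = 0.041) and by 0.68 ± 0.10 at its other probe set (adjusted p = 0.00426). Nop2, Rrs1, Nop16 and Rrp1b were not called, with averaged differences between 0.18 (Rrs1) and 0.39 (Nop16).

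**Figure D3:**
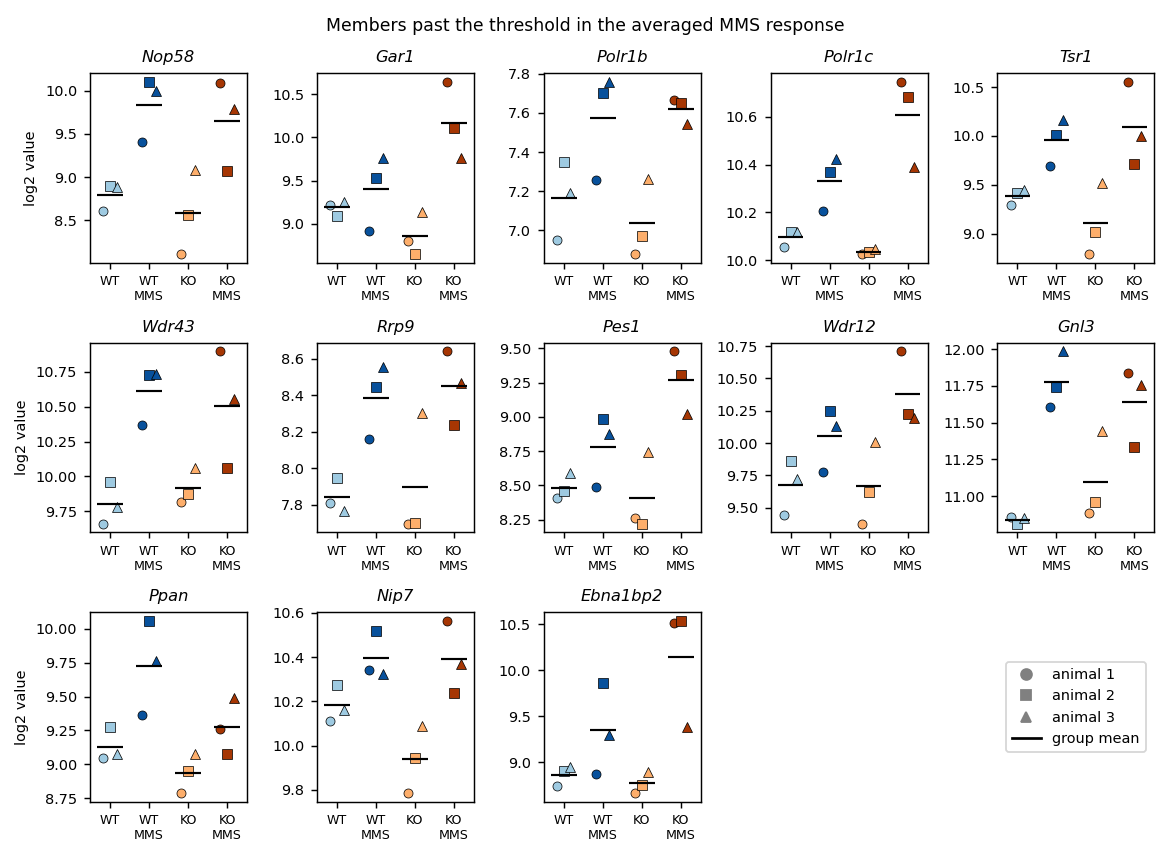
Log2 value of each of the 13 members called in the averaged MMS response, 1 point per liver, with untreated and MMS-treated groups of wild type (WT) and Aag knock-out (KO) on the horizontal axis and a bar at each group mean (n = 3). In Polr1c, Tsr1 and Wdr43 all 6 treated points lie above all 6 untreated ones, and in the other 10 members the 2 sets overlap.

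Across probe sets, 24 further ones existed for 19 members. In the averaged response 21 had the same sign as the one used and 3 the opposite sign (Imp4, Ncl and Wdr12, none called), and 5 were called, all higher. Opposite signs were found for 4 in wild type (Imp4, Ncl, Nolc1 and Wdr12) and for 3 in the knock-out (Ncl, Pes1 and Rrp1b), none called. For 7 members, Fbl, Nop56, Gar1, Nhp2, Polr1c, Tsr1 and Wdr43, the probe set used has the Affymetrix suffix that marks probes shared with other transcripts, so part of the signal may come from another gene.

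The comparison of genotypes asked whether Aag loss changed these genes, and no member was called in any of its 3 forms. Without treatment 26 of 32 members had a negative difference in the knock-out, with a median of -0.10 against -0.02 over all genes. That median depended on the processing: it was -0.0019 after median centring (all genes 0.07), -0.04 after quantile normalization, -0.23 without both knock-out arrays numbered 3 and -0.42 with a clock score, described below, as a covariate. Limma called 0 members there (0.0484% of genes), and 1 (3.12%) had an unadjusted p under 0.05, against 7.26% of all genes. The smallest p belonged to Nop16, a 60S assembly factor, with 8.18, 8.18 and 8.45 in untreated and 8.20, 8.65 and 8.32 in treated wild-type livers, and 7.88, 7.93 and 7.81 in untreated and 8.54, 8.84 and 8.19 in treated knock-out livers. Untreated knock-out livers were below all untreated wild-type ones, at a difference of -0.40 ± 0.18 (limma adjusted p = 0.684). Next came Nip7 (-0.24 ± 0.13, adjusted p = 0.75) and Gnl3 (0.25 ± 0.18, adjusted p = 0.84). After MMS 19 members were higher in the knock-out, with a median of 0.09 against 0.03 over all genes. Its direction turned with the scaling, to -0.06 after quantile normalization (all genes -0.0072) and -0.08 after median centring (all genes -0.14), and it was 0.0075 with the 5' to 3' signal, a measure of RNA integrity, as a covariate. Limma called 0 members (0.0161% of genes). An unadjusted p under 0.05 was found for 7 members (21.9%), close to the 19.5% of all genes. Of these 6 were higher in the knock-out and Ppan (-0.45 ± 0.18, limma adjusted p = 0.226) was lower. The smallest p values were those of Nhp2 (0.67 ± 0.20, adjusted p = 0.152), Gar1 (0.77 ± 0.25, adjusted p = 0.173) and Pes1 (0.49 ± 0.19, adjusted p = 0.213).

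The MMS response itself was tested for a difference between genotypes. It was larger in the knock-out for 21 members (65.6%), against 55.2% of all genes, with a median difference of 0.24 against 0.06. With the 5' to 3' signal as a covariate that median was 0.09, against 0.07 over all genes. Limma called 0 members and 0.0% of all genes, and 2 members (6.25%) had an unadjusted p under 0.05, a smaller share than the 18.5% of all genes. These were Gar1 (1.09 ± 0.36, adjusted p = 0.187) and Nhp2 (0.84 ± 0.29, adjusted p = 0.196), both of the box H/ACA snoRNP, followed by Pes1 (0.56 ± 0.26, adjusted p = 0.294). By role, all 3 box H/ACA, all 3 box C/D and all 4 scaffold and helicase genes had the larger value in the knock-out, while 6 of the 8 small subunit factors had the larger value in wild type. These directions moved with the scaling: after quantile normalization 17 members, and after median centring of the arrays 15, had the larger value in the knock-out. The 3 box H/ACA genes kept that direction under both, as did the lean of the small subunit factors, of which 7 then had the larger value in wild type. Median centring took the median difference of the 32 members to -0.02, and that of all genes to -0.20. So a call made in one genotype alone, such as Gar1 in the knock-out or Gnl3 in wild type, was not shown to be a difference between genotypes.

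Most other genes of the pathway also had positive differences. Of 114 measured ribosome biogenesis genes outside the set, from 5 lists, 38 rose in the averaged response, 1 fell and 75 were not called, with 94 positive and a median of 0.31. Within wild type 9 rose and none fell, and within the knock-out 7 rose and none fell. Of all genes 41.3% were positive on average, where 5.04% were called higher and 7.49% lower. The shares of all genes called higher were 2.2% in wild type and 0.888% in the knock-out. Among 10 cofactors of RNA polymerase I 2 rose, Taf1d, a subunit of its selectivity factor SL1 (0.79 ± 0.13, limma adjusted p = 0.00545), and Polr1e, a polymerase subunit (0.72 ± 0.14, adjusted p = 0.0112). Among 36 other small subunit factors 13 rose. Ngdn had the smallest p (0.72 ± 0.09, adjusted p = 0.00164), with every treated liver (10.48 to 10.89) above every untreated one (9.92 to 10.16). Ltv1, a 40S export factor, rose by 0.91 ± 0.17, Utp25 by 0.65 ± 0.12 and Tsr3, an 18S rRNA-modifying enzyme, by 0.57 ± 0.11. Utp6, a processome subunit, was the 1 gene that fell (-0.60 ± 0.17, adjusted p = 0.0481), and it is named here after its value was seen. Among 46 other large subunit factors 19 rose and none fell, led by the helicase Ddx49 (0.81 ± 0.13), the rRNA methyltransferase Ftsj3 (0.96 ± 0.16), the GTPase Gnl2 (0.79 ± 0.13) and Nle1 (0.54 ± 0.11). Of 8 snoRNP assembly genes 3 rose, Coil, the coilin of Cajal bodies (0.43 ± 0.09), Nufip1 (0.54 ± 0.12) and Ruvbl1, an ATPase (0.58 ± 0.16). Of 14 genes of the RNA exosome and trimming 1 rose, the nuclease Exosc10 (0.51 ± 0.13).

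MYC is a transcription factor known to drive ribosome biogenesis genes together with its partner MAX. Myc had log2 values of 8.57, 7.23 and 7.82 in untreated and 6.28, 6.08 and 6.45 in treated wild-type livers, and 7.73, 6.75 and 6.98 in untreated and 6.36, 6.90 and 6.81 in treated knock-out livers. All treated wild-type livers were below the untreated ones, while in the knock-out treated animals 2 and 3 lay within the untreated range. Myc fell by 1.03 ± 0.23 on average (limma adjusted p = 0.0192) and by 1.60 ± 0.33 in wild type (adjusted p = 0.0208), with -0.46 ± 0.33 in the knock-out (adjusted p = 0.409). Max rose by 0.46 ± 0.10 on average (adjusted p = 0.0182). The other 7 measured genes of the family were not called in the averaged response.

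**Figure D4:**
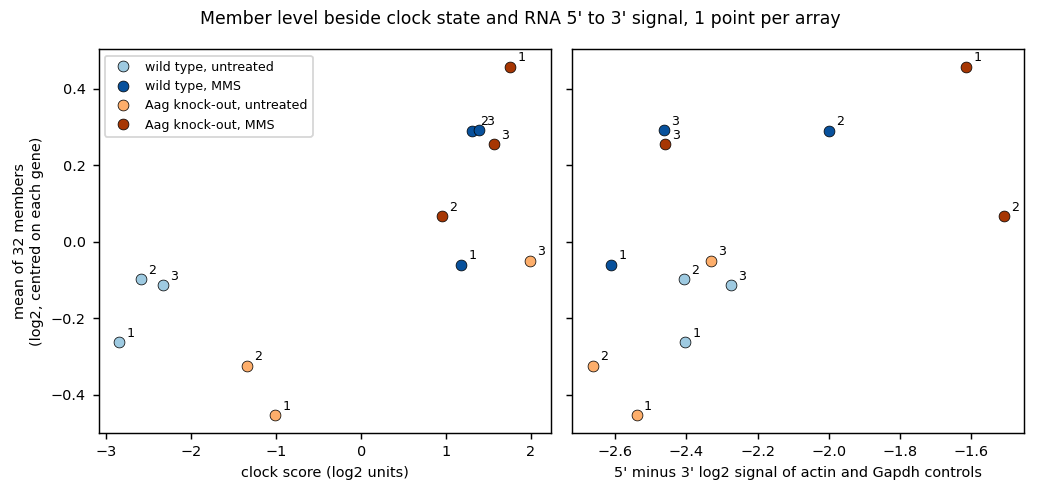
Mean of the 32 members in each liver (log2, each gene centred on its mean over 12 arrays) against the clock score (left) and against the 5' minus 3' log2 signal of control probe sets for actin and Gapdh (right), numbered by animal. The wild-type groups are separate on the clock score (-2.85 to -2.33 untreated, 1.18 to 1.39 treated), and knock-out MMS animals 1 and 2 have the highest 5' to 3' signal (-1.61 and -1.51).

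Several other measures moved with treatment. A clock score, the mean of evening-peaking minus that of dawn-peaking liver genes, was -2.85, -2.60 and -2.33 in untreated and 1.18, 1.31 and 1.39 in treated wild type. It was -1.01, -1.34 and 1.99 in untreated and 1.76, 0.95 and 1.57 in treated knock-out livers. Untreated knock-out animal 3, with the highest score, also had the highest member mean of the untreated livers. Untreated wild type had the lowest scores, and its member means (-0.26, -0.10 and -0.11) were above those of untreated knock-out animals 1 and 2 (-0.45 and -0.32). Within untreated wild type, animal 1 had both the lowest score and the lowest member mean. Of untreated knock-out animals 1 and 2, animal 1 had the higher score and the lower member mean. A relation of score and member mean was not tested. In wild type the score and the treatment do not overlap, so clock state and MMS cannot be told apart there. With the score as a covariate the median change of the members was -0.20 in wild type (8 of 32 positive), 0.32 in the knock-out (28 positive) and 0.12 on average (20 positive), and limma called 0 members in each. At an unadjusted p under 0.05, 0 members were higher with that covariate in wild type, 8 in the knock-out and 0 on average. How many of all genes passed in this fit, or in the 5' to 3' fit below, is not given. A loss of calls in the members can thus not be told apart from one over all genes. The slope of the clock score covariate comes only from the spread of the score within groups. The standard deviation of the score was 1.83 in untreated knock-out livers, where animal 3 stood apart. It was 0.26 in untreated and 0.11 in treated wild type, and 0.42 in treated knock-out livers. The adjusted changes thus rest largely on 1 liver and cannot separate clock state from MMS. The 5' to 3' signal, a measure of RNA integrity, was -1.61 and -1.51 in treated knock-out animals 1 and 2 and between -2.66 and -2.001 in the other 10 arrays. With it as a covariate the median was 0.29 in wild type with 3 called, 0.39 in the knock-out with 0 called by limma (12 at an unadjusted p under 0.05) and all 32 positive, and 0.39 on average with 2 called.

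Markers of other cell types were called too. Beside them, 2.2% of all genes were called higher and 5.33% lower in wild type, and 0.888% and 0.815% in the knock-out. Of 11 endothelial markers 5 fell in wild type, with a summed log2 level of 13.6 to 13.7 untreated and 13.2 to 13.3 treated. Of 12 lymphocyte markers 3 fell (10.8 to 11.2 untreated, 10.1 to 10.3 treated), and of 11 stellate cell and fibroblast markers 3 fell (13.7 to 14.4 untreated, 13.1 to 13.3 treated). Of 10 neutrophil markers 3 rose (10.84 to 12.03 untreated, 12.7 to 13.5 treated), but 5 differences of that list were positive and 5 negative, with a median of 0.03. Of 11 proliferation genes 1 fell and none rose in wild type, with summed levels of 12.6 to 13.9 untreated and 12.5 to 12.7 treated. In the knock-out limma called 0 of the 55 markers of these 5 lists. At an unadjusted p under 0.05 7 were higher and 9 lower (all genes, 13.3% and 12.7%). Of 6 cholangiocyte markers, with summed levels of 11.2 to 11.9 untreated and 10.01 to 10.5 treated in wild type and 10.7 to 11.5 and 10.5 to 11.9 in the knock-out, Tff3 fell in wild type and Krt19 rose in the knock-out. Of 10 Kupffer cell and macrophage markers Marco rose and Adgre1 fell in wild type, where 2 differences were positive and 8 negative. The summed level of that list was 14.4 to 14.8 untreated and 14.2 to 14.4 treated. In the knock-out 0 of them were called by limma (3 at an unadjusted p under 0.05). Of 5 erythroid markers Hba-a1 rose in wild type, where 3 differences were positive and 2 negative. The summed level of that list went the other way, at 11.39 to 11.67 untreated and 11.1 to 11.2 treated. In the knock-out 0 of them were called by limma (2 at an unadjusted p under 0.05). These 5 markers are named after their calls were seen. In whole liver, fewer cells of a type and less RNA per cell cannot be told apart. The part of these cell types in the member values was not tested.

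Each group holds 3 livers, and the counts of calls changed when single livers were left out. The share of all genes called in those fits is not given here, so the counts may follow the whole array. Livers outside the groups compared also mattered, since the fit shares 1 estimate of the spread over all groups. The 3 knock-out calls lay close to the threshold, at limma adjusted p of 0.0408 (Gar1), 0.048 (Polr1c) and 0.0495 (Pes1). The averaged count of 13 became 5 without untreated wild-type animal 1, 8 without untreated wild-type animal 3, and 5 and 6 without untreated knock-out animals 1 and 2. It became 7 without treated wild-type animal 2, 7 without treated wild-type animal 3 and 6 without treated knock-out animal 1. The wild-type count of 2 became 0 without untreated wild-type animal 1 or 3 or treated wild-type animal 3. It became 1 without untreated wild-type animal 2, treated wild-type animal 2 or untreated knock-out animal 1 or 2. The knock-out count of 3 became 0 without any 1 of the untreated wild-type animals, untreated knock-out animal 1 or 2, treated wild-type animal 3 or treated knock-out animal 1 or 2. It became 5 without untreated knock-out animal 3 and 11 without treated knock-out animal 3. The median change of the members stayed between 0.36 and 0.45 on average, 0.23 and 0.45 in wild type and 0.43 and 0.64 in the knock-out when each of the 12 arrays was left out in turn. In the same fits the pathway count of 39 called genes ranged from 16 to 52, falling to 16 and 20 without untreated wild-type animals 1 and 3, 18 and 20 without untreated knock-out animals 1 and 2, 24 and 19 without treated wild-type animals 2 and 3, and 19 without treated knock-out animal 1.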

How the data were processed

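Total RNA of 12 livers was hybridised as biotin-labelled cRNA, 1 array per animal, per the labels' protocols. The authors deposited log2 expression values made with RMA, per the submitters' processing notes. RMA subtracts background, scales arrays to each other and combines probes into 1 value. The sources used here do not name the RMA version, the chip definition or the arrays scaled together, and the log base was read from the values. Such scaling hides a change shared by most genes. No detection call came with the values.

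The table had 22690 probe sets. The 64 controls were set aside and 22626 tested, of which 20380 had 1 gene symbol, 691 several and 1555 none in the platform annotation. Of the named ones 20351 matched a RefSeq gene table (GRCm38.p6) by gene identifier, and 0 symbols changed. Probe sets with several symbols named no gene. The table had 0 extra sample columns. Groups came from the labels. Limma 3.58.1 in R 4.3.3 fitted 1 mean per group to the 12 arrays (8 residual degrees of freedom) with moderated variances and Benjamini-Hochberg adjustment over all probe sets tested at 0.05. The fit was run on simulated data with independent noise, as a check of the code only. Members were read from it and described by counts and medians, with no set test.

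The members, lists and rules were chosen with earlier results of these data known. Values in every array were given for members past the threshold in any comparison, for the member with the smallest p in each role, and, where a comparison had no call, for the 3 members with the smallest p. From each other list at most 4 called genes with the smallest p were named, plus Myc, Mpg and Utp6. Marker and clock lists came from general knowledge. Animal numbers recur across groups, but no label says that they mark a shared litter or day. Among 18 pairs of same-numbered arrays the correlation of deviations from group means ran from -0.48 to 0.40, with 7 over 0.1. Of the 12 arrays 8 were closest to an array of their own number. These values do not settle whether the numbers mark pairs. As no label ties them to a pairing, they were not treated as pairs, and a fit with a block on them is given below. Replicates are separate animals by their titles.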

Additional observations from a re-analysis of the deposited data

How the results depend on the processing

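The alternatives were array weights, a trended robust variance, 2 filters on low values, median centring, quantile normalization, a replicate block on the animal number, the compared groups alone, 1 probe set or the mean of all probe sets per gene, 2 covariates, and fits without both knock-out arrays numbered 3 or without each array in turn. The averaged response and the difference of the responses could not be fitted on the compared groups alone. The wild-type count of 2 called members became 7 with quantile normalization, 7 with median centring, 11 with array weights, 1 with the replicate block, 1 with the mean of probe sets and 0 with the clock score. The knock-out count of 3 became 5 and 7 with means of at least 5 and 6, 6 with the robust variance, 22 with array weights, 0 with the replicate block, 0 with the compared groups alone, 5 with 1 probe set per gene, 0 with either covariate and 16 without both arrays numbered 3. The averaged count of 13 became 26 with array weights, 0 with the clock score and 2 with the 5' to 3' signal, and it was 11 with the replicate block. The pathway count of 39 became 75, 0 and 11 under the same 3 settings. From 0, array weights gave 2 calls for Aag loss after MMS and 5 for the difference of the responses, and leaving out both arrays numbered 3 gave 2 and 1. The share of all genes called in each alternative fit is not given here. These counts thus do not tell a change in the members from one over the whole array.

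The median change moved to 0.49 in wild type with median centring, and with the clock score to -0.20 in wild type, 0.32 in the knock-out, 0.12 on average, -0.42 for Aag loss without treatment and 0.43 for the difference of the responses. That last median was 0.0417 with quantile normalization and -0.0159 with median centring. Centring moved the median of all genes from -0.06 to 0.13 in wild type and to -0.13 in the knock-out. Signs turned for Pes1 in Aag loss after MMS with the mean of probe sets (-0.0563), and with the clock score for Rrp9 on average (-0.0063) and Gnl3 in Aag loss without treatment (-0.21). The causes were not tested.

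Leaving out each array in turn gave 0 to 3 calls in wild type, 0 to 11 in the knock-out, 5 to 17 on average, 16 to 52 in the pathway lists, 0 to 2 for Aag loss after MMS, and 0 to 0 both without treatment and for the difference of the responses. The medians ran from 0.23 to 0.45, 0.43 to 0.64 and 0.36 to 0.45 for the MMS responses in wild type, in the knock-out and on average, from -0.23 to -0.05 and -0.04 to 0.16 for Aag loss without treatment and after MMS, and from 0.16 to 0.30 for their difference. The replicate block, which rests on numbers that no label ties to a pairing, left the medians at 0.30, 0.55 and 0.39, and 8 of 12 arrays were closest to an array of their own number. With 3 arrays per group, the number of arrays limits the precision.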
